A study of Homo sapiens with 4 samples.

Results

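The plasminogen activators PLAU and PLAT, the urokinase receptor PLAUR and the activator inhibitor SERPINE2 were followed at the transcript level in osteosarcoma cells after knockdown of ZNF217. These 4 genes were taken by name from a table of 20024 genes, and all 4 passed the low-count filter that left 12965 genes for testing. The cells were SJSA-1, a human osteosarcoma line. There were 2 libraries labelled ZNF217 knockdown and 2 labelled control. The labels do not name the knockdown reagent or the treatment of the control cells. They also do not tell whether the libraries of a group had separate cultures behind them, and p-values then cover library-to-library spread that may be technical.

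Plasminogen is a circulating zymogen that urokinase (PLAU) and tissue-type activator (PLAT) cleave to the broad protease plasmin. Plasmin digests fibrin and matrix proteins, and PLAUR, a lipid-anchored receptor, holds urokinase at the cell surface. Serpins stop the activators by forming a covalent complex with them, and clearance receptors then take the complexes up. In bone-forming cells and sarcomas the system is known for its part in matrix turnover, migration and invasion.

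In these cells PLAU differed between knockdown and control libraries by less than its standard error. Both knockdown values of PLAT and of PLAUR lay below both control values, 1.58-fold and 1.55-fold lower by the fit, and neither passed the adjusted threshold. Such an order was found in 22.9% of all tested genes. SERPINE2 had knockdown values between the 2 control values. The fold change of PLAT was of like size against either control, whereas those of PLAUR and SERPINE2 depended on control replicate 2.

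The libraries held 21466327 to 24487126 counts. The targeted gene ZNF217, a zinc finger transcription factor, was at 37.6 and 31.9 CPM in knockdown cells, against 66.2 and 73.4 CPM in control cells. Its log2 fold change was −1.01 ± 0.20 (SE), with an adjusted p of 0.207 by edgeR and 0.0123 by DESeq2. CPM here are counts relative to the TMM-scaled library total. The biological coefficient of variation was 0.0776 between the knockdown libraries and 0.393 between the control libraries, so a control value rests on a pair that agreed less well. By edgeR's quasi-likelihood test with Benjamini-Hochberg adjustment, 0% of the 12965 genes were called higher and 0% lower. At an unadjusted p under 0.05 edgeR had 6.61% higher and 6.42% lower. After adjustment DESeq2 called 1.62% higher and 1.84% lower of the 13987 genes it adjusted. Limma-voom also called 0 genes. Of 8 osteoblast lineage markers, 5 had at most 25 counts in every library, among them SP7 and ALPL. The 8 summed to 150.8 to 159 CPM in knockdown cells and to 29.8 to 42.9 CPM in control cells. Most of the knockdown sum was SPP1, osteopontin, at 126 and 133 CPM in knockdown cells, against 14.6 and 8.30 CPM in control cells. RUNX2 overlapped between groups, at 16.5 and 16.5 CPM in knockdown cells, against 11.2 and 17.4 CPM in control cells. So did COL1A1, at 8.43 and 9.05 CPM in knockdown cells, against 3.51 and 17.1 CPM in control cells. The amplified genes of this line MDM2, CDK4 and GLI1 summed to 378 to 406 CPM in knockdown cells and to 216 to 390.1 CPM in control cells. Most of that was CDK4, at 331 and 367 CPM in knockdown cells, against 349 and 184 CPM in control cells. MDM2 was at 46.3 and 38.9 CPM in knockdown cells, against 41.0 and 30.4 CPM in control cells. GLI1 had 4 to 32 counts per library. The 5 epithelial markers summed to at most 0.820 CPM in knockdown cells and 1.47 CPM in control cells. The part of these markers in the results was not tested.

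PLAU, the urokinase gene (ENSG00000122861), lies on chromosome 10 at 73909177 to 73917497 on the plus strand of GRCh38, and its principal transcript has 11 exons. RefSeq sequence upstream of the start site at 73911132 (GRCh38.p14, chr10:73910882-73911103, plus strand, positions -250 to -29) is shown because PLAU is by far the most abundant of these transcripts. Capitals mark GGGCGG, the core of an SP1 site, on either strand.
PLAU: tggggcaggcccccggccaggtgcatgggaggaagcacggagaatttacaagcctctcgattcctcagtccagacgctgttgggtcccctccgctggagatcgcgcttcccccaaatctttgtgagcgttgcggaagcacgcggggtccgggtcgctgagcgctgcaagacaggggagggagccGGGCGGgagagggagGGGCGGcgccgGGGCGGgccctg
GGGCGG occurs 3 times there, beginning at positions -66, -51 and -40. Of the 35116 windows of 250 bases in the RefSeq table, 42.6% hold it. The stretch shown lies within the annotated span of PLAU, downstream of its annotated 5' end. In the 250 bases upstream of another RefSeq start of PLAU, at 73910610, GGGCGG was found 0 times.

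PLAU had 17992 and 17183 counts in the knockdown libraries, against 15792 and 16120 in the control libraries, so counting error alone was under 1% in each. Its level was 702 and 717 CPM in knockdown cells, against 730.2 and 719 CPM in control cells. The group means were 709 ± 10.05 CPM in knockdown and 725 ± 7.70 CPM in control (SD, n = 2 each). On this scale both knockdown values lay just below both control values, as in the 22.9% given above. In TPM, the length-scaled share of transcripts, which scales the libraries without TMM, the groups overlapped. The edgeR log2 fold change was −0.03 ± 0.15 (SE, adjusted p = 0.950), and it was 0.083 with total counts as the only scaling. Its 95% interval ran from −0.41 to 0.35 on the log2 scale, or 0.753-fold to 1.27-fold. C10orf55, an annotated gene on the opposite strand that overlaps PLAU over 7529 bases, introns included, had 28 to 53 counts per library. Since the strand setting of the counting is not given, PLAU carries that uncertainty.

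PLAT, the tissue-type activator best known from the vessel wall (ENSG00000104368), spans 42175233 to 42207724 on the minus strand of chromosome 8. It was the scarcest of these transcripts, with 270 and 222 counts in the knockdown libraries, against 352 and 337 in the control libraries. These counts carry a counting error of 5.33% to 6.71%. The level was 10.5 and 9.26 CPM in knockdown cells, against 16.3 and 15.04 CPM in control cells. Both knockdown values lay below both control values, and the values within each group were closer to each other than the groups were. The group means were 9.90 ± 0.907 CPM in knockdown and 15.7 ± 0.876 CPM in control (SD, n = 2 each).

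The log2 fold change of PLAT was −0.66 ± 0.25 (SE), and its 95% interval was −1.30 to −0.02. The unadjusted p was 0.0443 and the adjusted p 0.373 by edgeR, and by DESeq2 the adjusted p was 0.362, so the difference did not pass. Against control replicate 2 alone the log2 fold change was −0.61 (adjusted p = 0.00311), and against control replicate 1 alone it was −0.72 (adjusted p = 0.000755). With 1 control left, these fits take their spread from the closely matching knockdown pair. Against control replicate 2 alone they called 27.9% of all genes higher and 28% lower, and against control replicate 1 alone 18% higher and 16.6% lower, so passing in these fits was common among all genes. The 7 endothelial markers summed to 0.664 to 0.667 CPM in knockdown cells and to 0.509 to 1.07 CPM in control cells, and CDH5 and CLDN5 had at most 1 count. In bulk RNA, fewer cells of a type and less RNA per cell cannot be told apart.

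**Figure D1:**
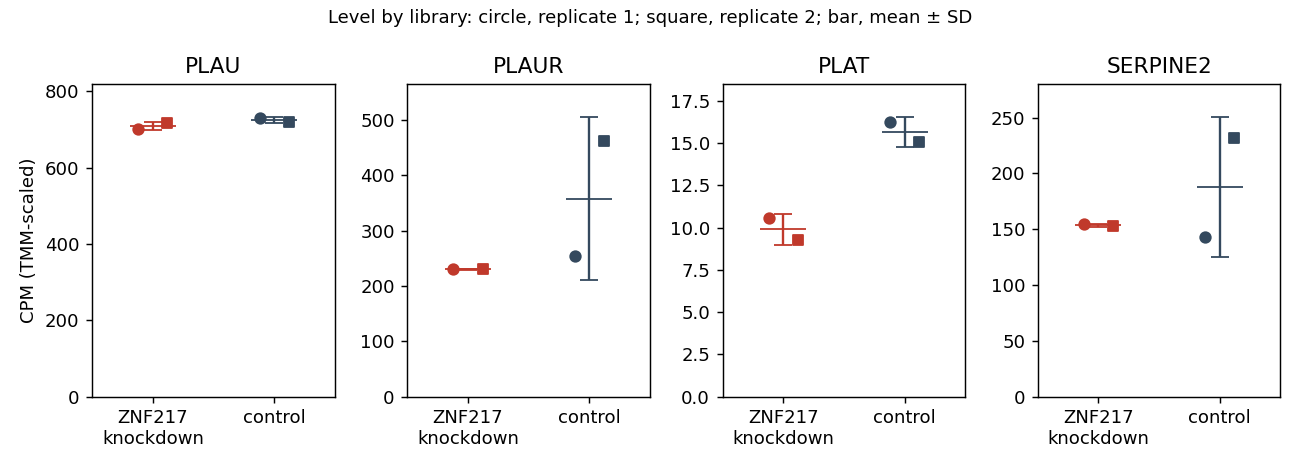
CPM of PLAU, PLAUR, PLAT and SERPINE2 in each library, knockdown on the left and control on the right of each panel, with the mean and SD of each group as a bar. PLAT separates the groups with both pairs close together, while for PLAUR and SERPINE2 control replicate 2 stands at 462 and 232 CPM above the other libraries.

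PLAUR, the urokinase receptor gene (ENSG00000011422), lies on chromosome 19 at 43646095 to 43670547 on the minus strand, with 7 exons in its principal transcript. A stretch of 30 bases at positions -197 to -168 from the RefSeq start at 43670169 (GRCh38.p14, chr19:43670337-43670366, minus strand) is shown because it holds the only AP-1 type motif in the windows searched for PLAU, PLAUR and SERPINE2. Longer annotated transcripts of PLAUR start further upstream and include this stretch.
PLAUR: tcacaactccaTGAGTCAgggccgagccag
Capitals mark TGANTCA, the site of FOS and JUN dimers, at position -186. It was searched on both strands and occurs in 6.57% of the 250-base windows of the table.

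PLAUR had 5887 and 5543 counts in the knockdown libraries, against 5495 and 10353 in the control libraries. Its level was 229.8 and 231 CPM in knockdown cells, against 254 and 462 CPM in control cells. The knockdown libraries lay within 1% of each other, and control replicate 2 was 1.82-fold above control replicate 1. The group means were 230.5 ± 0.950 CPM in knockdown and 358 ± 147 CPM in control (SD, n = 2 each). By edgeR the log2 fold change was −0.64 ± 0.31 (SE, 95% interval −1.43 to 0.16, adjusted p = 0.462, and 0.435 by DESeq2). Against control replicate 1 alone it was −0.14 (adjusted p = 0.339), and against control replicate 2 alone −1.01 (adjusted p = 9.70e-18). That small p rests on the spread of the knockdown pair, in a fit that called 28% of all genes lower. Both control libraries shared the direction and not the size.

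PLAUR is also abundant in myeloid cells, and 9 of 12 blood cell markers had at most 25 counts in every library. PTPRC, which all nucleated blood cells carry, had at most 2 counts. The 12 markers summed to 57.8 to 58.5 CPM in knockdown cells and to 80.3 to 82.1 CPM in control cells, most of it from CD68. Without CD68 the sums were 7.34 to 8.43 CPM in knockdown cells and 3.84 to 4.24 CPM in control cells. The part of these markers in the PLAUR values was not tested.

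SERPINE2, also called protease nexin-1, inhibits urokinase, tissue-type activator and thrombin. The gene (ENSG00000135919) spans 223975112 to 224039319 on the minus strand of chromosome 2, with 9 exons in its principal transcript. Bases -250 to -165 from the RefSeq start at 224038640 (GRCh38.p14, chr2:224038805-224038890, minus strand) are shown for comparison with PLAU, with GGGCGG or its complement in capitals.
SERPINE2: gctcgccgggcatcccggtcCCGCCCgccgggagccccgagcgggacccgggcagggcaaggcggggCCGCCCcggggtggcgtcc
The motif begins at positions -230 and -183, on the strand opposite to the transcript. This stretch lies within the annotated span of SERPINE2. In the 250 bases upstream of another RefSeq start, at 224031478, the motif was found 1 time, at position -50. CCGGAA, a form of an ETS site, was not found in the 250 bases upstream of the starts used for PLAU, PLAUR and SERPINE2. Nor were CAGAAC or CAGAAT, forms of a ZNF217 consensus. Of all windows, 14.5%, 12.2% and 11.9% hold these motifs. Other and shorter forms of an ETS site were not searched. A match describes letters and not a bound site, and a missing match says only that the letters are not in this window.

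SERPINE2 had 3958 and 3663 counts in the knockdown libraries, against 3098 and 5199 in the control libraries. Its level was 154.5 and 153 CPM in knockdown cells, against 143 and 232 CPM in control cells. The groups overlapped, since both knockdown values lay between the control values. The group means were 154 ± 1.24 CPM in knockdown and 188 ± 62.8 CPM in control (SD, n = 2 each). Its log2 fold change was −0.29 ± 0.27 (SE, 95% interval −0.98 to 0.40, adjusted p = 0.681 by edgeR and 0.818 by DESeq2). It was 0.10 against control replicate 1 alone (adjusted p = 0.551) and −0.61 against control replicate 2 alone (adjusted p = 1.20e-06), so its sign changed with the control library. The second of these fits is again the one that called 28% of all genes lower.

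**Figure D2:**
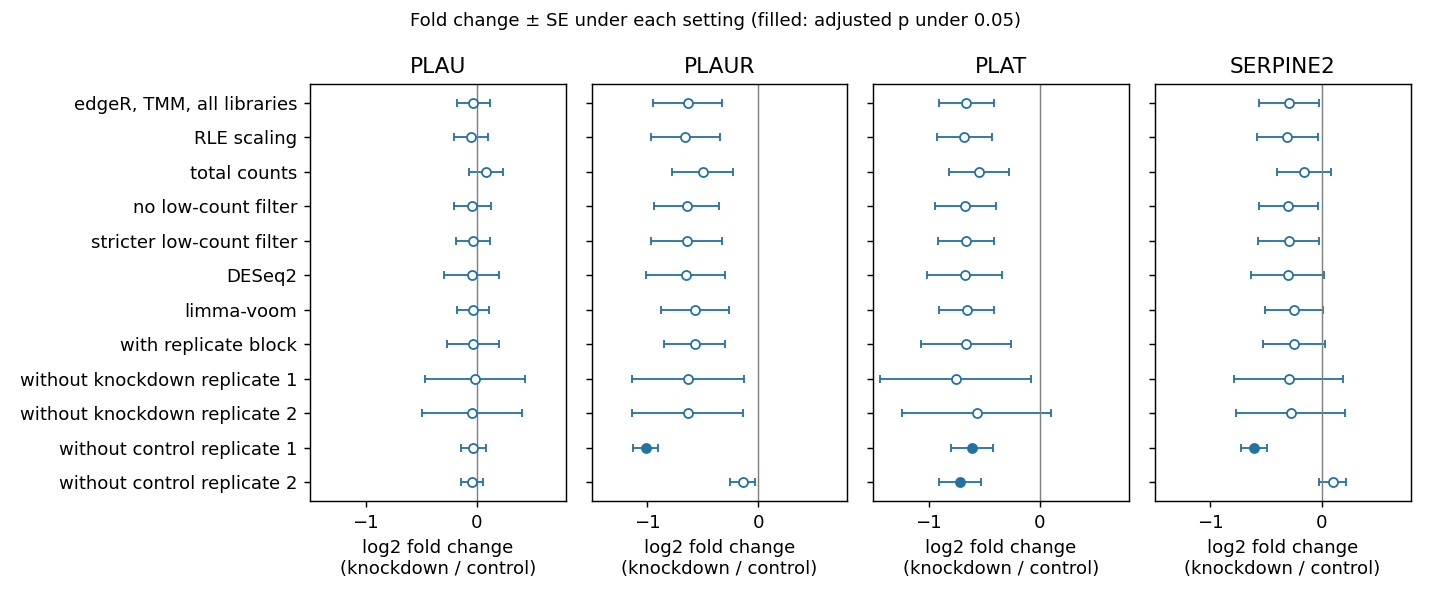
Log2 fold change of each gene, knockdown over control, with its standard error under every setting; filled points have an adjusted p under 0.05. PLAU stays within 0.1 of 0, PLAT stays between −0.76 and −0.55, and PLAUR and SERPINE2 shift with the control library left out.

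The difference between the control libraries was therefore set beside that of other genes. In log2 CPM, control replicate 2 minus control replicate 1 was 0.86 for PLAUR, 0.69 for SERPINE2, −0.11 for PLAT and −0.02 for PLAU. A larger difference in either direction was found in 22.2% of tested genes for PLAUR and in 31.5% for SERPINE2. The corresponding shares were 86.6% for PLAT and 97.5% for PLAU, which places PLAU among the genes on which the controls agreed best. Between the knockdown libraries PLAT differed most of the 4, by 0.18 in log2 CPM, and 34.8% of tested genes differed more.

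**Figure D3:**
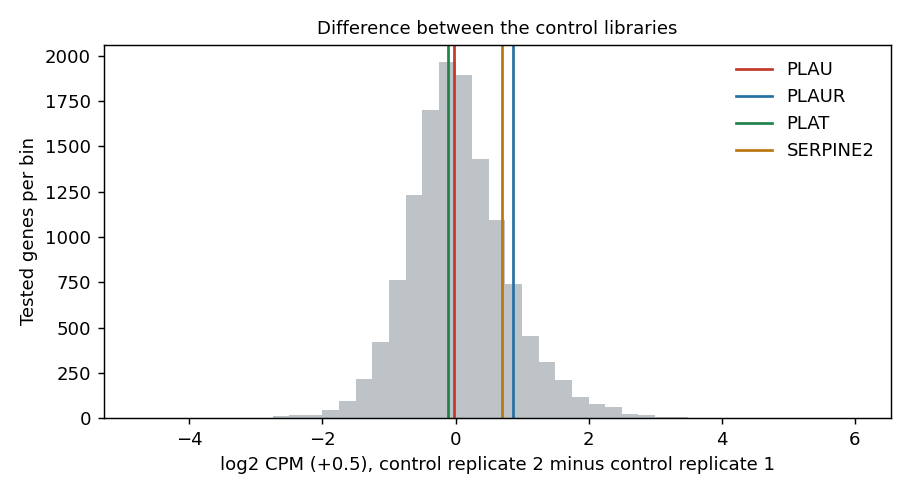
Histogram of log2 CPM (with 0.5 added) in control replicate 2 minus control replicate 1 over the tested genes, with a line for each of the 4 genes. PLAU and PLAT lie near 0, and PLAUR and SERPINE2 lie on the right at 0.86 and 0.69.

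Levels of the 4 genes were compared with each other per gene length, as TPM, the length-scaled share of transcripts. PLAU was highest in every library, followed by PLAUR, SERPINE2 and PLAT, and the order was the same in all 4 libraries with no overlap between neighbours. PLAU was at 789 and 771 TPM in knockdown cells, against 835 and 679 TPM in control cells, and 98.4% to 98.8% of tested genes lay below it. PLAUR was at 171 and 165 TPM in knockdown cells, against 192 and 288 TPM in control cells. SERPINE2 was at 57.2 and 54.1 TPM in knockdown cells, against 53.9 and 72.1 TPM in control cells. PLAT was at 5.28 and 4.44 TPM in knockdown cells, against 8.29 and 6.32 TPM in control cells. Of the tested genes, 25.9% to 27.3% lay below PLAT in knockdown cells and 34.7% to 36.6% in control cells. Urokinase was thus the predominant activator transcript of this line.

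The balance between the genes was described by ratios of TPM. PLAU transcripts exceeded PLAT transcripts 149.5-fold and 174-fold in knockdown cells, against 101-fold and 107-fold in control cells. For each transcript of the receptor PLAUR there were 4.62 and 4.69 of PLAU in knockdown cells, against 4.34 and 2.35 in control cells. Neither ratio overlapped between groups, and the exact two-sided permutation test over the 4 libraries gave p = 0.333 for each, the smallest value that 2 against 2 libraries allow. Control replicate 1 lay near the knockdown libraries for PLAU over PLAUR, and control replicate 2 stood apart. SERPINE2 transcripts per PLAU transcript were 0.0724 and 0.0702 in knockdown cells, against 0.0646 and 0.106 in control cells, with overlapping groups. SERPINE2 transcripts per PLAUR transcript were 0.335 and 0.329 in knockdown cells, against 0.281 and 0.2499 in control cells, without overlap and with the same exact permutation p of 0.333.

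The genes whose pattern over the 4 libraries was nearest to each member were found by Euclidean distance of centred log2 CPM among 9334 genes of at least 10 CPM. For PLAU, whose pattern is nearly flat, they were HNRNPLL, MYO1C and ALDH18A1, at distances of 0.0219 to 0.0240, and 198 genes lay within 0.1. For PLAUR they were AHRR, GRAMD1A and MFSD10, at 0.0302 to 0.0389. MFSD10, for example, was at 49.4 and 49.9 CPM in knockdown cells, against 54.3 and 103 CPM in control cells. For PLAT they were PPFIBP1, CAMSAP2 and RAD17, at 0.0315 to 0.0611, and for SERPINE2 they included ALDH2 and TSHZ3, at 0.0292 and 0.0385. With 4 libraries such nearness is only a description, and 27 genes for PLAUR, 13 for PLAT and 49 for SERPINE2 lay within 0.1.

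The authors' deposited table gives fold changes as control over knockdown, and its values for these genes differ from those of the deposited counts. In the authors' deposited table the log2 fold change of PLAU is 0.79 with a standard error of 0.34 (adjusted p = 0.293), whereas the deposited TPM-type columns give −0.04 for the same ratio. For PLAT the authors' deposited table has −0.40, and the columns give 0.59, the opposite direction. The authors' deposited table gives PLAT a mean normalized count of 3096, whereas the deposited counts of PLAT are 222 to 352. For PLAUR the authors' deposited table has 0.04 beside 0.52 from the columns, and for SERPINE2 the authors' deposited table has 0.20 beside 0.18. The direction of the authors' deposited table was read from its name. With its sign turned to knockdown over control, 39.6% of 12960 tested genes had the opposite sign to the edgeR fit, and with the sign as deposited, 60.4% of the genes in the authors' deposited table did. Which libraries entered that table is not stated, so it was not used for any test.

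Around these 4 genes, 67 other genes of the plasminogen system and its neighbourhood were listed by role, of which 48 passed the low-count filter. Both knockdown libraries lay below both controls for 18 and above both for 9 of the 48, or 37.5% and 18.8%, against 22.9% and 25.4% of all tested genes. Their median log2 fold change was −0.35, against −0.01 over all tested genes. EdgeR called 0 of them, with 3 higher and 12 lower at an unadjusted p under 0.05. The shares over all tested genes were 6.61% and 6.42%. DESeq2 called 1 higher and 5 lower, or 2.08% and 10.4%, against the 1.62% and 1.84% given above. Those 2 shares are over the 13987 genes that DESeq2 adjusted, a larger set than the 12965 past the low-count filter. Control replicate 2 was the highest library for 22 of the 48, or 45.8%, against 35.6% of all tested genes.

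Plasminogen itself (PLG) and vitronectin (VTN), a matrix ligand of PLAUR, had 0 counts in every library, which allows up to 0.139 CPM, and HGF, a growth factor that urokinase can activate, had at most 7 counts. Of 6 tested genes for plasminogen binding, 3 were below both controls and 0 above, against 22.9% and 25.4% of all tested genes. The annexin ANXA2, which binds plasminogen and PLAT together with S100A10, was at 2014 and 1968 CPM in knockdown cells, against 3015 and 2607 CPM in control cells (edgeR adjusted p = 0.313). ENO1, a glycolytic enzyme that also acts as a plasminogen receptor, was at 4114 and 4158 CPM in knockdown cells, against 4177 and 4224 CPM in control cells. ENO1 is counted among the 3, though its fitted fold was 0.985.

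Among inhibitors, 4 of 9 were tested, and 3 of the 4 lay above both controls, as did 25.4% of all tested genes. SERPINB8 was at 67.2 and 60.5 CPM in knockdown cells, against 41.2 and 26.9 CPM in control cells (edgeR adjusted p = 0.290). SERPINI1, neuroserpin, an inhibitor of PLAT, was at 7.22 and 8.63 CPM in knockdown cells, against 2.73 and 4.24 CPM in control cells. SERPINB2, an inhibitor of urokinase, was at 10.03 and 8.38 CPM in knockdown cells, against 2.64 and 6.92 CPM in control cells. DESeq2 called 0 of these inhibitors, as edgeR did. At an unadjusted p under 0.05 edgeR had 2 of the 4 higher, and 6.61% of all tested genes.

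Of 7 tested genes for clearance receptors and their chaperone LRPAP1, 3 lay below both controls and 2 above, or 42.9% and 28.6%. Over all tested genes the shares were 22.9% and 25.4%. DESeq2 called 0 of the 7 higher and 2 lower, or 28.6% lower, against 1.62% and 1.84% of all genes it adjusted. VLDLR, which takes up complexes of activator and serpin, was at 14.6 and 10.6 CPM in knockdown cells, against 23.6 and 48.7 CPM in control cells (DESeq2 adjusted p = 0.0162, edgeR adjusted p = 0.280). MRC2, a collagen receptor that associates with PLAUR, was at 50.6 and 47.8 CPM in knockdown cells, against 79.4 and 155 CPM in control cells. Its adjusted p was 0.0290 by DESeq2 and 0.284 by edgeR. The endocytic receptor LRP1 was at 4.65 and 4.80 CPM in knockdown cells, against 5.09 and 19.7 CPM in control cells, and thus stood apart in control replicate 2 alone. Of 8 tested surface partners of PLAUR, 3 integrin subunits lay below both controls, ITGA5, ITGB5 and ITGA3, and 0 partners lay above. The shares over all tested genes are the 22.9% and 25.4% just given. ITGA5 of the fibronectin receptor was at 227 and 219.9 CPM in knockdown cells, against 283 and 494 CPM in control cells (edgeR adjusted p = 0.368). Annotated genes on the opposite strand overlap the span of ITGA5 over its whole 24200 bases and that of VLDLR over 21526. They overlap LRP1 over 3647 and 3000 bases and MRC2 over 190 and 1952. These spans include introns, and overlap of exons was not computed. Without the strand, reads from shared exon bases could not be told apart. The same holds for ZNF217, over 8799 and 1554 bases, and for ETS1, over 4248 bases. Other listed genes also have such overlaps.

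Among 10 tested proteases and their receptors and inhibitors, 3 lay above and 3 below both controls, close to the shares of 25.4% and 22.9% over all tested genes. DESeq2 called 1 higher and 2 lower, or 10% and 20%, against 1.62% and 1.84% of all genes it adjusted. The called genes differ in role. Thrombin, a target of SERPINE2, signals through protease-activated receptors. F2RL2, protease-activated receptor 3, was at 18.9 and 17.8 CPM in knockdown cells, against 2.17 and 2.41 CPM in control cells. Its fitted fold was 7.99, higher in knockdown cells (DESeq2 adjusted p = 1.55e-12, edgeR adjusted p = 0.127). F2RL2 lies within IQGAP2 on the opposite strand, and IQGAP2 was at 4.76 and 4.30 CPM in knockdown cells, against 2.40 and 5.09 CPM in control cells. F2R, protease-activated receptor 1, was at 18.7 and 15.01 CPM in knockdown cells, against 30.9 and 43.3 CPM in control cells. Its adjusted p was 0.0253 by DESeq2 and 0.238 by edgeR. THBD, thrombomodulin, which redirects thrombin to protein C, was at 14.3 and 12.5 CPM in knockdown cells, against 39.7 and 110.1 CPM in control cells (DESeq2 adjusted p = 2.82e-05, edgeR adjusted p = 0.224).

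**Figure D4:**
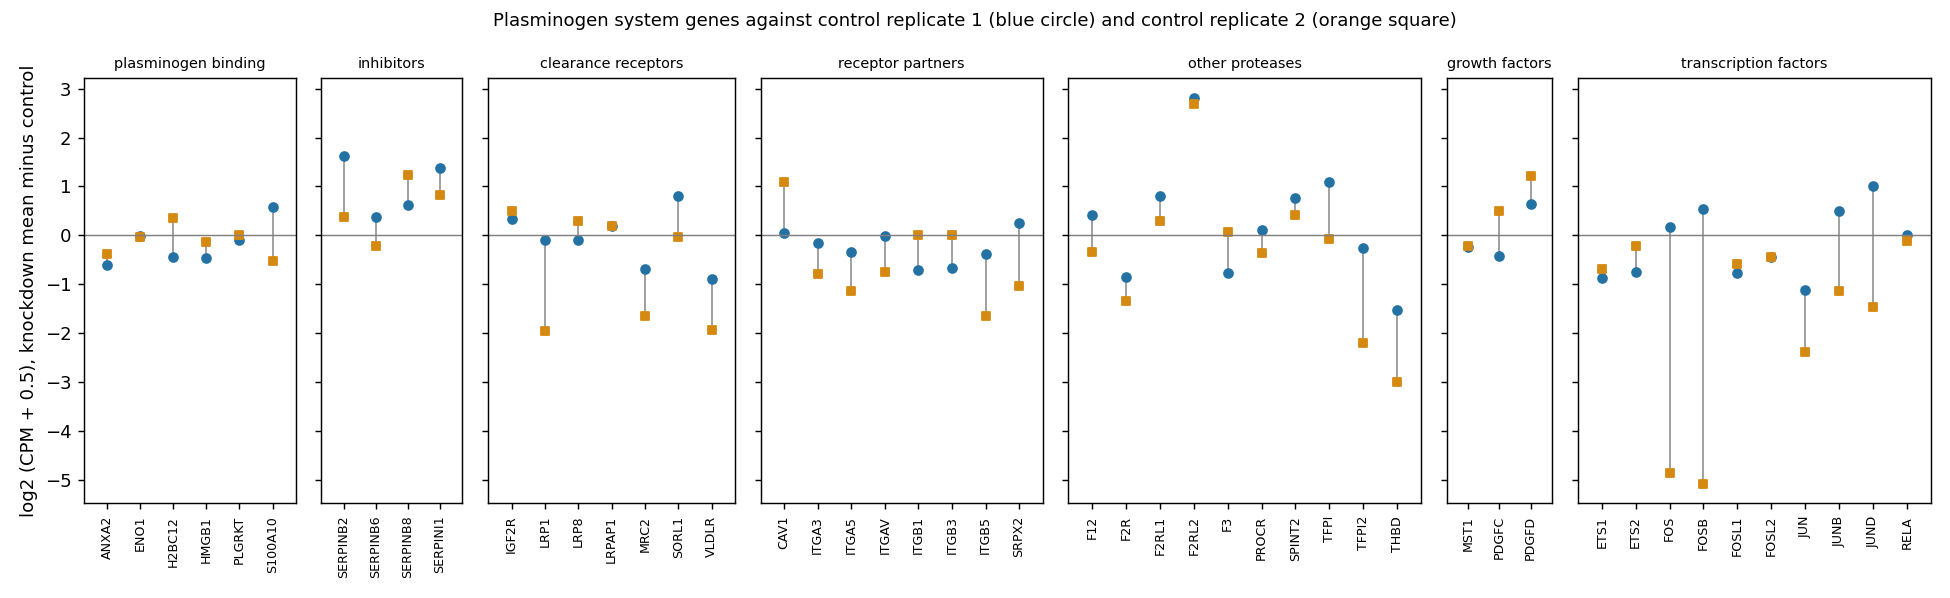
Mean log2 CPM (with 0.5 added) of the knockdown libraries minus that of control replicate 1 (circles) or control replicate 2 (squares) for the 48 tested genes, by role. F2RL2 is high and THBD low against both controls, while FOS and FOSB are near or above 0 against control replicate 1 and near −5 against control replicate 2.

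Of 10 transcription factors known at the PLAU promoter, 5 lay below both controls and 0 above, or 50% and 0%. Over all tested genes the shares were 22.9% and 25.4%. Control replicate 2 was the highest library for 6 of the 10, or 60%, against 35.6% of all tested genes. JUN was at 109 and 114 CPM in knockdown cells, against 244 and 583 CPM in control cells (DESeq2 adjusted p = 6.00e-04, edgeR adjusted p = 0.237). FOSL1, a partner of JUN in AP-1, was at 439 and 515 CPM in knockdown cells, against 818 and 711 CPM in control cells (edgeR adjusted p = 0.270). ETS1 was at 92.9 and 79.0 CPM in knockdown cells, against 158 and 138.5 CPM in control cells (edgeR adjusted p = 0.247). FOS was at 21.2 and 27.7 CPM in knockdown cells, against 21.4 and 725 CPM in control cells, so control replicate 2 alone was high. Of 3 tested growth factors, PDGFD, which urokinase can activate, was at 6.67 and 5.34 CPM in knockdown cells, against 3.65 and 2.28 CPM in control cells (edgeR adjusted p = 0.388).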

How the data were processed

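Per the labels, RNA was sequenced from 2 ZNF217 knockdown and 2 control libraries of SJSA-1 cells. The authors deposited whole-number counts per gene, made with Trimmomatic, HISAT2 and Subread on GRCh38 per the submitters' processing notes; versions, annotation and strand setting were not given there. They also deposited a signal per library named TPM whose columns sum to 10 times the usual TPM total; it was divided by 10 here and equals count over the deposited gene length, scaled per library. The deposited log2 fold changes, their standard errors, p-values, mean normalized counts (a signal) and Wald scores come from the authors' DESeq2 table, per the file headers. They served for comparison only.

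EdgeR 4.0.16 (R 4.3.3) tested the counts (quasi-likelihood, TMM, minimum count 10, minimum total 15, two-sided, threshold 0.05). Standard errors were the log2 fold change over the root of F. DESeq2 1.42.0 and limma 3.58.1 were alternatives. Positions came from GENCODE release 29, promoters from RefSeq; figures used matplotlib 3.10.9. The tests were checked on simulated counts with equal spread in both groups, so that check does not cover the unequal spread of these libraries. The floor for 0 counts was 3 counts and covers counting error only.

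Members, lists and motifs were chosen with earlier results of these data known. Named were the members, ZNF217, listed genes of each role, up to 3 genes nearest each member, and, after their values were seen, 2 overlapping genes. Not every inhibitor gene of the activators, nor every near gene, is reported here.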

Additional observations from a re-analysis of the deposited data

How the results depend on the processing

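PLAU turned to 0.083 with total counts, which moved the median of all tested genes to 0.11, and SERPINE2 to 0.10 without control replicate 2. With 1 library left out, log2 fold changes ranged from −0.04 to −0.02 for PLAU, −1.01 to −0.14 for PLAUR, −0.76 to −0.57 for PLAT, −0.61 to 0.10 for SERPINE2 and −1.13 to −0.89 for ZNF217. The called genes then ranged from 12 to 3710 higher and 3 to 3729 lower, and those of the plasminogen system from 0 to 14 and 0 to 22. The high counts, 3710 higher and 3729 lower without control replicate 1 and 2374 higher and 2183 lower without control replicate 2, arise by construction from the spread of the knockdown pair alone. ZNF217 passed by DESeq2 (−1.03). Called higher and lower were 226 and 257 genes by DESeq2 (1 and 5 of the system), 16 and 3 without a low-count filter (1 and 0) and 160 and 124 under a replicate block (1 and 3). Same-numbered libraries shared no deviation (correlation across genes −0.0244), so the numbers were not taken as pairs. Median-of-ratios scaling, a stricter filter and limma-voom changed no call of the 4 genes. PLAT, with 222 to 352 counts, had the largest counting error of the 4 genes, 5.33% to 6.71%.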
